A study of Mus musculus with 8 samples.

Results

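The 10 early response genes described here encode transcription factors of the AP-1, EGR and NR4A families: Fos, Fosb, Jun, Junb, Jund, Egr1, Egr2, Egr3, Nr4a1 and Nr4a3. They were chosen by symbol from a table of raw counts that lists 28239 gene symbols, and all 10 were found and were among the 12700 genes tested. The table covers 4 libraries labelled Alox15-/- and 4 labelled WT. Each was made from naïve CD4+ T cells of C57BL/6 background, isolated from spleen, that had been held for 2 days under conditions that drive differentiation to regulatory T cells (Tregs), with IL-2, TGF-β and beads that stimulate CD3 and CD28. Both groups received this same treatment, and no unstimulated cells were among the samples. The design states 4 mice per group, and the methods describe female and male mice of 10 to 12 weeks without saying which animal gave which library. The Alox15-/- line lacks 15-lipoxygenase in the whole body and was bought from another breeder than the WT mice, so genotype and breeder cannot be told apart.

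AP-1 is a dimer of FOS and JUN proteins that binds DNA through a basic leucine zipper. EGR proteins bind GC-rich sites through zinc fingers, and NR4A proteins are orphan nuclear receptors that act without a known ligand. Many of these genes are switched on within minutes of T cell receptor engagement, through the ERK and calcium pathways, and are switched off again by unstable mRNA and by negative feedback. In T cells AP-1 pairs with NFAT at cytokine genes such as Il2, and EGR2 and EGR3 take part in anergy. Nr4a1 (Nur77) is widely used as a readout of receptor signal strength, and NR4A proteins take part in Treg development.

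Between 3723151 and 9538962 counts were assigned to genes in each library, and the biological coefficient of variation within groups was 14.5%. The targeted gene went against the labels: Alox15 was at 67.2 ± 3.18 CPM (counts brought to a common library size, scaled by TMM) in libraries labelled Alox15-/- but at only 5.31 ± 3.61 CPM in WT (mean ± SD, n = 4), and every direction given below follows the labels as deposited. The assay reads transcripts near their 3′ ends, and whether its tags lie outside the altered part of the gene, or whether the labels are correct, was not tested. Genes that define T cells and Tregs were present in all 8 libraries, with summed levels of 3201 to 3396 CPM in the libraries labelled Alox15-/- and 3272 to 3540 CPM in WT, and 0 of 10 passed the adjusted threshold. Those of smallest p were Cd3g, a chain of the receptor complex, at 152.1 to 169.8 against 111.0 to 139.7 CPM (log2 fold change 0.31; adjusted p = 0.296 by edgeR), and Cd4, the coreceptor, at 209.8 to 296.9 against 327.9 to 351.9 CPM (-0.32; adjusted p = 0.357). Foxp3, which defines Tregs and was named after its values were seen, was at 93.4 ± 17.1 and 124.9 ± 47.4 CPM (SD, n = 4; log2 fold change -0.42; adjusted p = 0.655 by edgeR). Its WT replicate 3 was at 195.4 CPM. The other WT libraries, at 93.4 to 109.3 CPM, lay within the 71.7 to 113.5 CPM of the libraries labelled Alox15-/-. Markers of other cells were higher in the libraries labelled Alox15-/- without overlap of the summed levels, at 909 to 3492 against 34.7 to 124 CPM for the 9 of 10 erythroid genes found (5 of 5 tested called higher) and 146 to 375 against 59.9 to 85.8 CPM for mast cells and basophils (8 of 9). They were at 21.4 to 78.4 against 1.25 to 10.4 CPM for eosinophils (2 of 2), at 193 to 509 against 121 to 162 CPM for myeloid cells (6 of 8) and at 116 to 219 against 60.4 to 76.2 CPM for NK and γδ T cells (5 of 8). For B cells the summed levels were 212 to 310 against 208 to 303 CPM (1 of 3 called, lower), and for CD8 T cells 12.1 to 21.9 against 21.5 to 31.8 CPM (0 of 2). Of all genes tested 1.24% were called in either direction, and 5.25% had groups that did not overlap. No listed marker was at 0 in all 8 libraries. Whether RNA of these cells took part in the values of the early response genes was not tested.

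Promoter windows from RefSeq (GRCm38.p6, 250 bases before to 50 bases after a start site) were found for 8 of the 10 genes, the exceptions being Egr1 and Egr3. The windows were searched on both strands for the CArG box bound by serum response factor, for the AP-1 site TGANTCA, the CREB site TGACGTCA, the EGR sites GCGGGGGCG and GCGTGGGCG, and the NR4A site AAAGGTCA. Only Fosb, Egr2 and Nr4a1 held a match, and their windows are shown so that the matched letters can be read in place. A match is a description of the letters, and binding was not measured. Sites outside these short windows, or with other letters than those searched, were not looked for. The lack of a match therefore does not mean that a gene lacks such a site. The sequences read 5′ to 3′ along the gene's strand, with the match in capitals.
Fosb, chr7:19309996-19310295, minus strand: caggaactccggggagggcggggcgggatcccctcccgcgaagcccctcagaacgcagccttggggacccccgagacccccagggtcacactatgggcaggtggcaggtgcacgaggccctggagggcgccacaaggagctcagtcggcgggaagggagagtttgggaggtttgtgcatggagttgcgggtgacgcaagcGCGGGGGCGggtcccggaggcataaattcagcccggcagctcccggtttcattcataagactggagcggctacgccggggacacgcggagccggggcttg
Egr2, chr10:67537619-67537918, plus strand: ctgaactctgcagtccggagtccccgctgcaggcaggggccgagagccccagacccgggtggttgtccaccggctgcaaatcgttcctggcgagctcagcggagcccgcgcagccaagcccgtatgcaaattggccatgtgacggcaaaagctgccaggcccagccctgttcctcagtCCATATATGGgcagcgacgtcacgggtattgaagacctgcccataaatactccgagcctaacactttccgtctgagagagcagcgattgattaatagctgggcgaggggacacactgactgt
Nr4a1, chr15:101266596-101266895, plus strand: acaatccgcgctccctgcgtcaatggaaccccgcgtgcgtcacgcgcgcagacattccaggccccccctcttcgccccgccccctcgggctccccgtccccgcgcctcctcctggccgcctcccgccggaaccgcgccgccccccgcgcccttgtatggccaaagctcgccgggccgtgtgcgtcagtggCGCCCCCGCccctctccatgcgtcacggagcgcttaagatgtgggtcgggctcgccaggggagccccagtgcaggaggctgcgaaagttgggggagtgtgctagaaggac
The capitals in Fosb are GCGGGGGCG at bases -50 to -42 from the start site, and those in Nr4a1 are the same EGR site read on the opposite strand at bases -60 to -52. In Egr2 they mark a CArG box at bases -72 to -63, and 4 of the 5 windows listed for this gene, which overlap in part, held one. Of 32851 RefSeq windows of this length, 2.91% held GCGGGGGCG and 1.63% a CArG box. The other motifs, present in 7.81% (TGANTCA), 1.79% (TGACGTCA), 0.612% (GCGTGGGCG) and 1.51% (AAAGGTCA) of the windows, matched none of the 8 genes.

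To establish whether the early response genes differed between the 2 labelled groups, these were compared by edgeR's quasi-likelihood test with Benjamini–Hochberg adjustment over all 12700 genes. None of the 10 genes passed the adjusted threshold of 0.05, where 1.24% of all genes tested did, and 0 had an unadjusted p under 0.05, where 7.84% of all genes did. DESeq2 and limma-voom also called 0 of the 10. The groups overlapped for all 10 genes, whereas 5.25% of all genes tested had groups that did not. The fold change was negative for 8 genes and positive for 2, with a median log2 fold change of -0.33 (libraries labelled Alox15-/- over WT) beside -0.0075 for all genes tested. In limma-voom the median over the 10 genes was -0.11, with -0.58 for Fosb and 0.45 for Fos. Of the 8 genes with a negative fold change 5 had a positive one without WT replicate 4, and Fosb, Jund and Nr4a3 did not. In bulk RNA a change in the share of responding cells and a change in RNA per cell cannot be told apart.

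**Figure D1:**
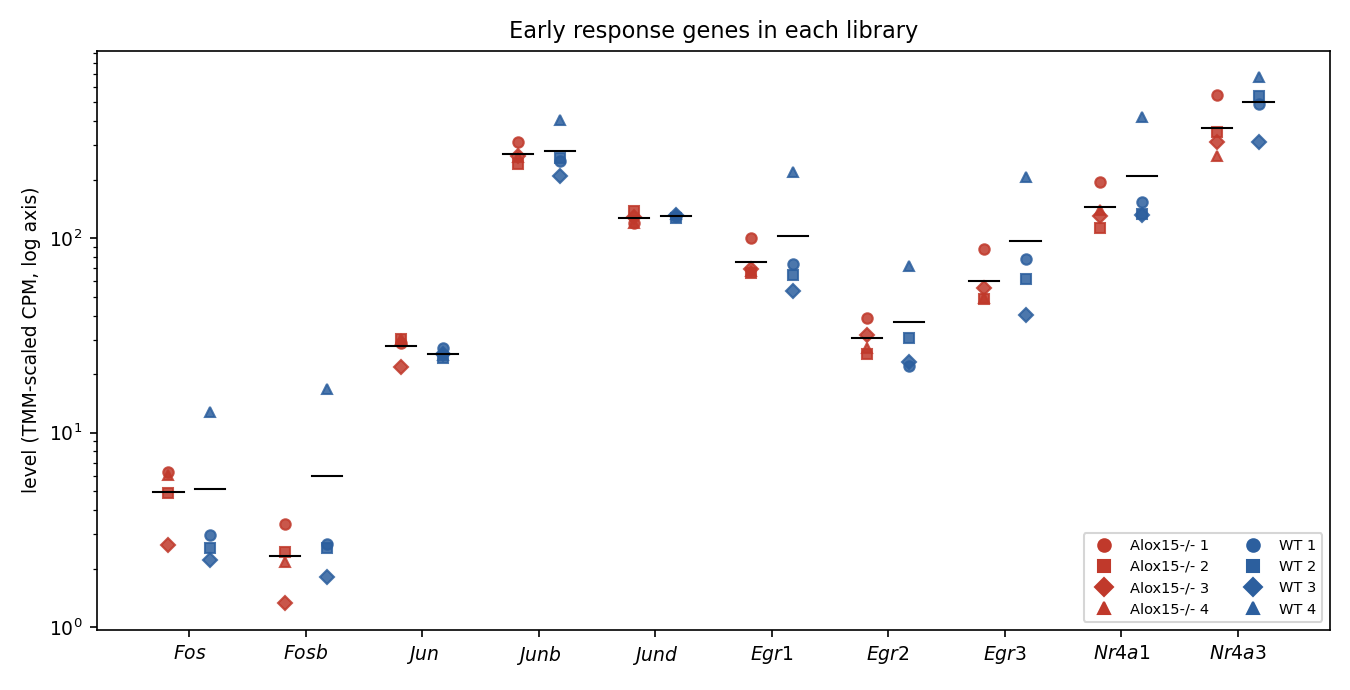
Level of each gene in each library, in TMM-scaled CPM on a log axis; red points are the 4 libraries labelled Alox15-/-, blue points the 4 WT libraries, marker shapes give the replicate number and black lines the group means (n = 4). WT replicate 4 (blue triangle) is the highest point for 8 of the 10 genes, and lies far above the others for Fosb (16.8 CPM, the next library being at 3.38 CPM), while the groups of Jun and Jund lie close together.

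Fos and Fosb encode the inducible FOS partners of AP-1 and were the least abundant of the 10 by count, with 14 to 61 and 7 to 80 counts per library. Fos (ENSMUSG00000021250.13, chr12:85473890-85477273, plus strand) was at 6.28, 4.89, 2.65 and 6.04 CPM in replicates 1 to 4 labelled Alox15-/- and at 2.98, 2.56, 2.22 and 12.8 CPM in WT replicates 1 to 4. Replicates 1, 2 and 4 labelled Alox15-/- lay above WT replicates 1 to 3, and WT replicate 4 lay above them all. The group means were 4.96 ± 1.66 and 5.14 ± 5.12 CPM (SD, n = 4), with a log2 fold change of 0.05 (SE 0.494; adjusted p = 0.992 by edgeR's quasi-likelihood test). Fosb (ENSMUSG00000003545.3, chr7:19302696-19310051, minus strand), whose window is printed above, was at 3.38, 2.44, 1.32 and 2.16 CPM in the libraries labelled Alox15-/- and at 2.67, 2.56, 1.82 and 16.8 CPM in WT. WT replicates 1 to 3 lay within the range of the libraries labelled Alox15-/-, and WT replicate 4 lay above all others. Counting error alone gave 95% Poisson intervals of 13.3 to 20.9 CPM for Fosb in WT replicate 4 and 1.85 to 5.67 CPM in the next library; duplicate reads would widen them. Fosb had the largest difference of the 10 genes, a log2 fold change of -1.27 (SE 0.646; unadjusted p = 0.0674, adjusted p = 0.686 by edgeR), which was -0.02 (SE 0.361; adjusted p = 0.997) without WT replicate 4. For Fos, leaving out that library gave 0.95 (SE 0.325; unadjusted p = 0.00934, adjusted p = 0.302).

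The JUN genes varied less between libraries than Fos and Fosb. Jun (ENSMUSG00000052684.4, chr4:95049034-95052222, minus strand), the prototype JUN subunit, was at 29.0, 30.4, 21.7 and 30.4 CPM in the libraries labelled Alox15-/- and at 27.3, 24.2, 25.2 and 24.97 CPM in WT. Replicates 1, 2 and 4 of the first group lay above all WT libraries and replicate 3 below them all, and the log2 fold change was 0.13 (SE 0.138; adjusted p = 0.871 by edgeR). Jund (ENSMUSG00000071076.6, chr8:70698949-70700616, plus strand), which is expressed in resting cells and is the least inducible JUN gene, was at 119.0, 138.4, 129.2 and 120.0 CPM in the libraries labelled Alox15-/- and at 130.3, 127.2, 130.9 and 133.3 CPM in WT. Its coefficient of variation in WT was 1.93%, against a median of 14.7% over all genes tested, and its log2 fold change was -0.04 (SE 0.0929; adjusted p = 0.946 by edgeR). Junb (ENSMUSG00000052837.6, chr8:84974484-84978718, minus strand), which in T helper and Treg cells pairs with BATF and supports IRF4 binding, was at 313.6, 241.3, 265.9 and 261.1 CPM in the libraries labelled Alox15-/- and at 249.8, 257.2, 209.9 and 404.4 CPM in WT. WT replicate 4 was again the highest library and WT replicate 3 the lowest. The difference in Junb was -0.05 on the log2 scale (SE 0.164; adjusted p = 0.971 by edgeR) and 0.18 (SE 0.118; adjusted p = 0.743) without WT replicate 4. Each of the 3 JUN genes overlaps a gene on the opposite strand (Junos, Gm11175 and Prdx2 for Jun, Jund and Junb), and since the strand used in counting is not given in the sources used here, their reads cannot be told apart.

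For the EGR genes a single WT library lay far above the others. Egr1 (ENSMUSG00000038418.7, chr18:34859823-34864984, plus strand), a zinc finger factor that follows ERK activity, was at 99.7, 66.2, 69.4 and 67.8 CPM in the libraries labelled Alox15-/- and at 73.8, 64.4, 53.4 and 218.9 CPM in WT. Egr2 (ENSMUSG00000037868.15, chr10:67535475-67542188, plus strand), with Egr3 a restraint on T cell activation, was at 38.6, 25.2, 31.8 and 27.2 CPM in the libraries labelled Alox15-/- and at 22.0, 30.8, 23.0 and 71.8 CPM in WT. Egr3 (ENSMUSG00000033730.4, chr14:70077203-70082614, plus strand) was at 88.1, 48.9, 55.4 and 49.5 CPM in the libraries labelled Alox15-/- and at 78.2, 61.7, 40.3 and 207.3 CPM in WT. In all 3 genes WT replicate 4 was the highest library and replicate 1 the highest of those labelled Alox15-/-, while WT replicates 1 to 3 lay within or close to the range of the other group. The log2 fold changes were -0.42 (SE 0.341) for Egr1, -0.24 (SE 0.304) for Egr2 and -0.67 (SE 0.374) for Egr3, with adjusted p of 0.828, 0.900 and 0.729 by edgeR. Without WT replicate 4 they were 0.25 (SE 0.153), 0.29 (SE 0.171) and 0.02 (SE 0.214), with adjusted p of 0.726, 0.713 and 0.994.

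Of the NR4A genes, Nr4a1 (ENSMUSG00000023034.7, chr15:101254269-101274795, plus strand) was at 194.6, 112.4, 129.4 and 139.3 CPM in the libraries labelled Alox15-/- and at 153.3, 133.7, 131.3 and 418.9 CPM in WT. WT replicates 1 to 3 differed little from each other, with a coefficient of variation of 8.66% that became 66.9% once replicate 4 was included. The log2 fold change of Nr4a1 was -0.53 (SE 0.307; unadjusted p = 0.103, adjusted p = 0.738 by edgeR) and 0.05 (SE 0.151; adjusted p = 0.960) without WT replicate 4. Nr4a3 (ENSMUSG00000028341.9, chr4:48045153-48086447, plus strand), an orphan receptor closely related to Nr4a1, was at 545.8, 352.8, 313.6 and 264.3 CPM in the libraries labelled Alox15-/- and at 492.0, 537.3, 313.1 and 673.7 CPM in WT. Here 3 WT libraries, not 1, lay above 3 of the 4 libraries labelled Alox15-/-, and the spread was alike in both groups (coefficients of variation 33.4% and 29.5%). Nr4a3 had the smallest unadjusted p of the 10 genes, with a log2 fold change of -0.45 (SE 0.220; unadjusted p = 0.0588, adjusted p = 0.666 by edgeR), and of -0.27 (SE 0.208; adjusted p = 0.773) without WT replicate 4.

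The shared high values of WT replicate 4 were the main pattern among the 10 genes. It was the highest of the 8 libraries for 8 of them, all but Jun and Jund, where this held for 17.9% of all genes tested. For 6 genes, Fosb, Egr3, Egr1, Nr4a1, Fos and Egr2, it was more than 1.5 times as high as the next library (4.97, 2.35, 2.20, 2.15, 2.04 and 1.86 times), which was so for 0.906% of all genes tested. Against the mean of WT replicates 1 to 3 it was 7.15 times as high for Fosb, 4.95 times for Fos, 3.45 times for Egr3, 3.43 times for Egr1, 3.004 times for Nr4a1 and 2.84 times for Egr2. Within WT its distance from the next library passed Dixon's 95% critical value for 4 of the 10 genes (Fos, Fosb, Egr1 and Nr4a1), as it did for 1.65% of all genes tested. Averaged over the 10 genes, its log2 CPM lay 1.07 above the mean of the 8 libraries. The next highest was replicate 1 labelled Alox15-/-, at 0.26, which was the highest of its group for 8 of the 10 genes, and the lowest was WT replicate 3, at -0.44. WT replicate 4 had 4810125 counts, the fewest among WT, and its log2 CPM over all genes had a mean correlation of 0.974 with the other WT libraries, the lowest of the 8 libraries, whose highest was 0.982. Its summed T cell and Treg markers were at 3444 CPM, within the range of the other WT libraries, although it was the highest of the 8 for 3 of these 10 genes and the lowest for 3. Its summed heat shock genes, mostly Hspa8 (2233 CPM), were at 3773 CPM, also within that range. The stress-inducible Hspa1a and Hspa1b, named after their values were seen, were too low to be tested and were highest in this library, at 2.52 and 2.31 CPM against at most 2.30 and 2.17 CPM elsewhere. Its summed erythroid markers (124 CPM) and mast cell and basophil markers (85.8 CPM) were the highest in WT and below every library labelled Alox15-/-. Whether handling, timing, depth or cell makeup of this library took part in the pattern was not tested.

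**Figure D2:**
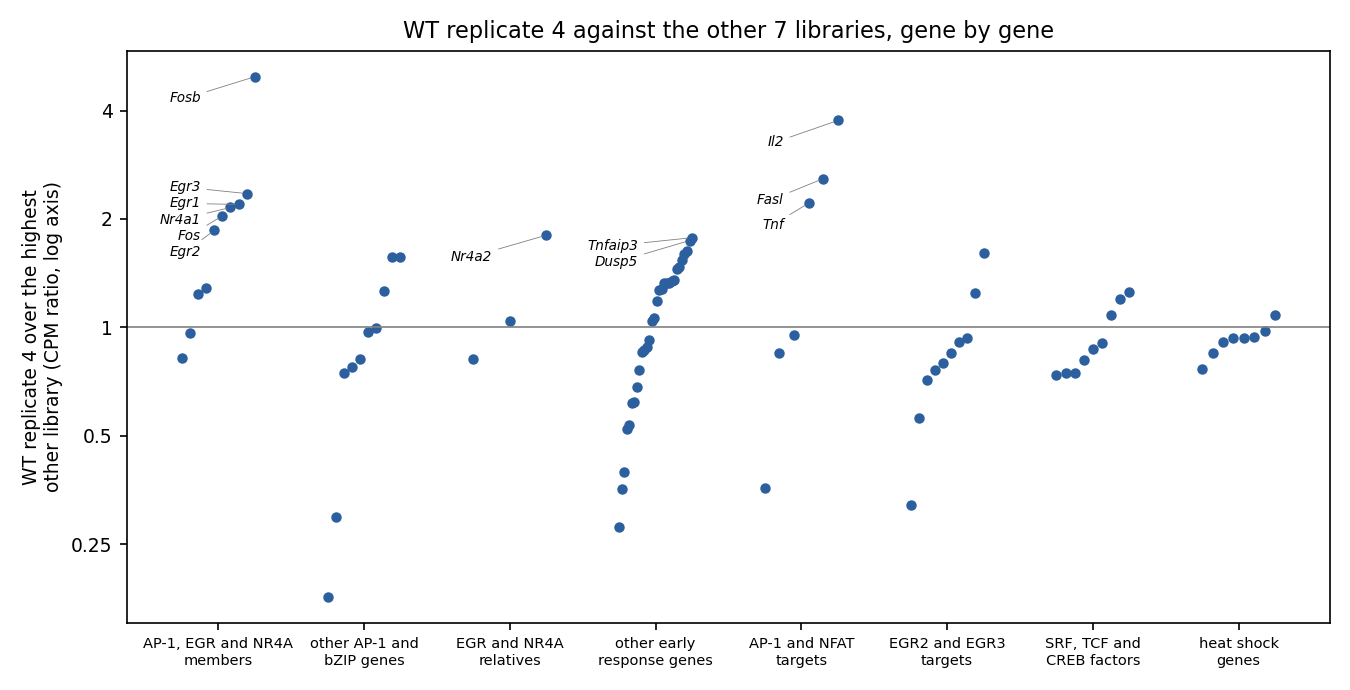
CPM of WT replicate 4 divided by the highest CPM among the other 7 libraries, on a log axis, with 1 point per tested gene, for the 10 genes and 7 related gene lists; genes above 1.7 are named. Of the 10 genes 8 lie above the line at 1, up to 4.97 for Fosb, and Il2, Fasl and Tnf stand out among the AP-1 and NFAT targets, while the heat shock genes lie between 0.77 and 1.08.

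Without WT replicate 4, 7 of the 10 genes had a positive and 3 a negative fold change, with a median of 0.088 on the log2 scale beside 0.00023 for all genes tested. The 5 genes Junb, Egr1, Egr2, Egr3 and Nr4a1 changed sign. Again 0 of the 10 passed the adjusted threshold in edgeR, where 1.37% of all genes tested did, and Fos alone had an unadjusted p under 0.05, where 8.39% of all genes did. This library was singled out for its high values, so leaving it out raises the fold change of genes it was highest for. The changes of sign and the unadjusted p of Fos are therefore no separate support for a difference between groups. When the filter on low counts was dropped, edgeR called 5 genes lower in the libraries labelled Alox15-/- (Fosb, Egr1, Egr3, Nr4a1 and Nr4a3), where 0.319% of all 28239 genes were called lower. In that fit the estimated prior degrees of freedom were infinite, against 8.99 with the filter, so that a gene's own spread between libraries did not enter its test. Without the filter and without WT replicate 4, 0 of the 10 were called.

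**Figure D3:**
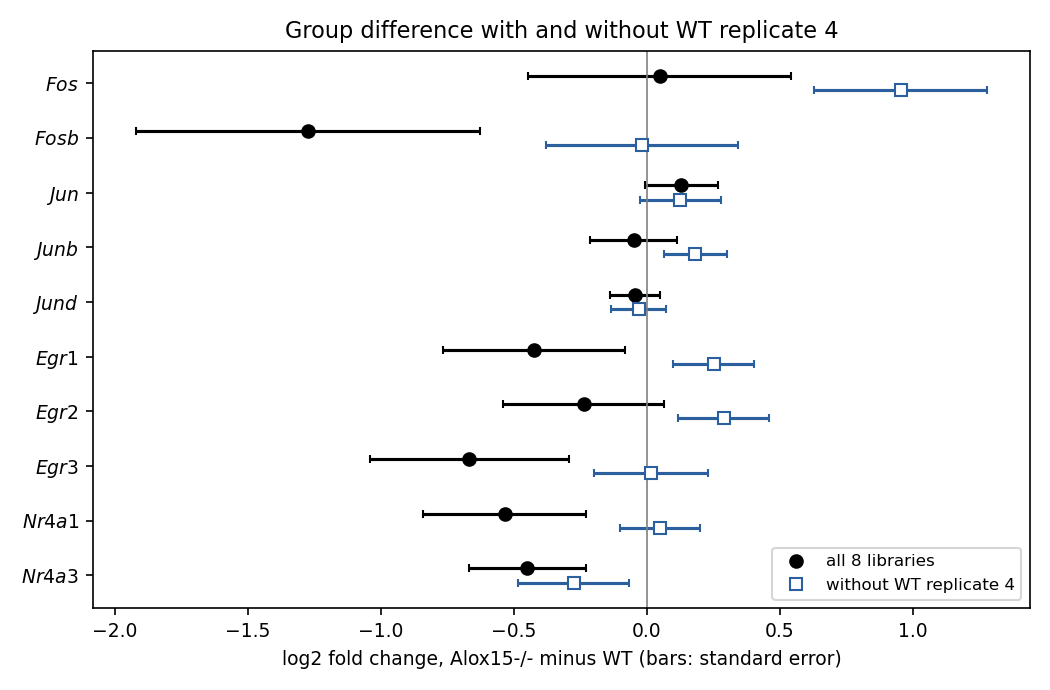
Log2 fold change of each gene, libraries labelled Alox15-/- over WT, with its standard error as a horizontal bar; black circles use all 8 libraries and open blue squares leave out WT replicate 4. Leaving it out moves Fosb from -1.27 to -0.02 and Fos from 0.05 to 0.95, and leaves Jun and Jund almost in place.

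The balance between related genes was compared as a log2 ratio within each library (CPM + 1 of each gene). Only its difference between groups is read, since levels of different genes are not on a common scale. For Fos over Fosb the ratio was 0.73, 0.77, 0.65 and 1.16 in the libraries labelled Alox15-/- and 0.12, 0.0, 0.19 and -0.37 in WT. The groups did not overlap, with means of 0.83 ± 0.225 and -0.01 ± 0.248 (SD, n = 4) and a difference of 0.84 on the log2 scale (exact two-sided permutation test, p = 0.0286, the smallest that 4 against 4 libraries allow; p = 0.171 adjusted over the 6 pairs). Without WT replicate 4 the difference was 0.72, and with a pseudocount of 0.1 in place of 1 CPM it was 1.05. The ratio rests on few reads, 7 to 80 per library for Fosb. For the other 5 pairs the groups overlapped, and the differences were 0.16 for Jun over Jund, 0.03 for Junb over Jund, -0.11 for Egr1 over Egr2, 0.34 for Egr2 over Egr3 and 0.07 for Nr4a1 over Nr4a3, with adjusted p between 0.514 and 0.886 in the same exact permutation test. Leaving out 1 library moved the difference to between 0.09 (without replicate 4 labelled Alox15-/-) and 0.28 (without its replicate 3) for Jun over Jund. For Egr2 over Egr3 the range was 0.16 (without WT replicate 1) to 0.499 (without WT replicate 3).

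**Figure D4:**
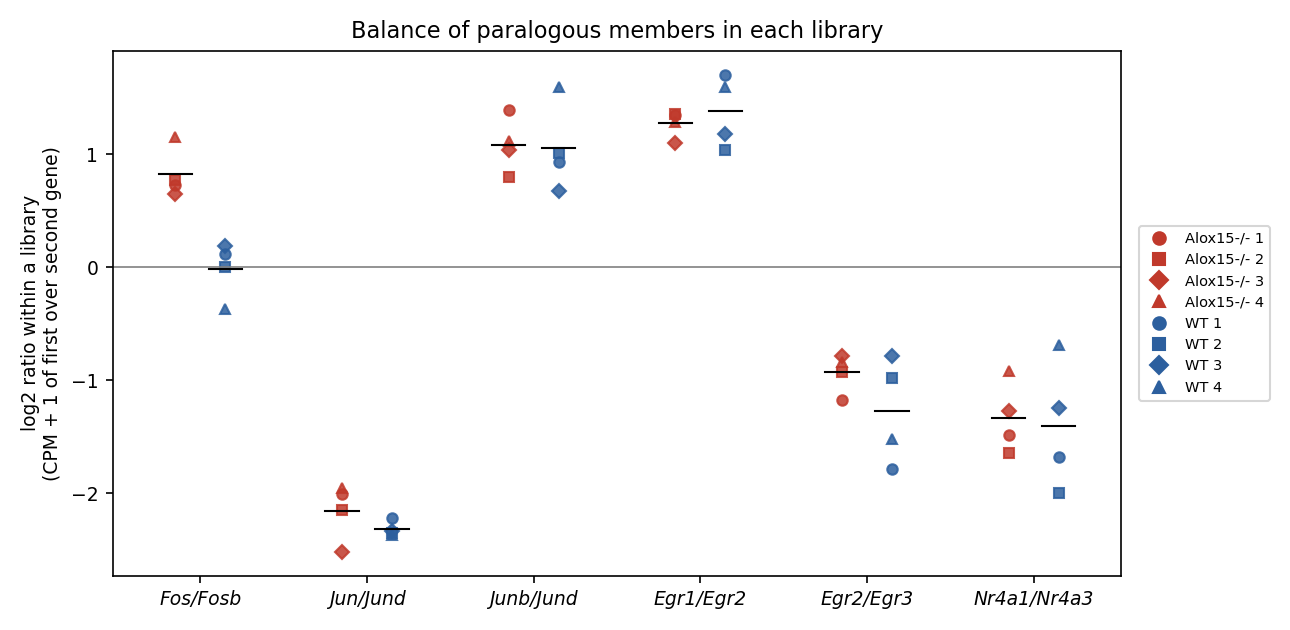
Log2 ratio of 2 related genes within each library (CPM + 1 of the first over the second), with red points for libraries labelled Alox15-/-, blue points for WT, marker shapes for the replicate number and black lines for group means (n = 4). Fos over Fosb is the pair whose groups do not overlap, at 0.65 to 1.16 against -0.37 to 0.19.

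The remaining genes of the same pathways gave the same count of 0 past the adjusted threshold in edgeR, list by list, and DESeq2 and limma-voom also called 0 in each list. Of 10 other AP-1 and partner genes, 1 had an unadjusted p under 0.05, 6 had a positive and 4 a negative fold change, and WT replicate 4 was the highest library for 3 and the lowest for 2, Batf3 and Jdp2. Of all genes tested 7.84% had such a p and 17.9% had this library as the highest. Without WT replicate 4, 8 of the 10 had a positive and 2 a negative fold change, and the median moved from 0.08 to 0.27 on the log2 scale. Batf3, a BATF factor that pairs with JUN proteins, was at 6.76, 14.1, 13.8 and 5.04 CPM in the libraries labelled Alox15-/- and at 5.02, 4.00, 5.85 and 2.52 CPM in WT (log2 fold change 1.12, SE 0.339; adjusted p = 0.231 by edgeR). Its relative Batf2 was at 13.03 to 15.7 CPM against 11.1 to 12.2 CPM, with no overlap (0.31, SE 0.150; adjusted p = 0.667 by edgeR). The AP-1 genes Atf3 and Fosl2, named after their values were seen, were highest in WT replicate 4, at 43.7 and 17.4 CPM, with at most 27.8 and 11.1 CPM elsewhere. Jdp2, which encodes a JUN dimerization partner and was also named after its values were seen, was lowest there, at 2.73 CPM against 3.62 to 9.18 CPM.

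Among the relatives of the EGR and NR4A genes 3 of 4 could be tested (not Egr4), with 0 at an unadjusted p under 0.05. Of all genes tested 7.84% had such a p, so lists this short could well hold none. The EGR co-repressor genes Nab1 and Nab2 differed by -0.11 (SE 0.120) and -0.02 (SE 0.164) on the log2 scale, with adjusted p of 0.880 and 0.988 by edgeR. Nr4a2, the remaining NR4A receptor, named after its values were seen, was at 6.52, 4.61, 3.78 and 2.30 CPM in the libraries labelled Alox15-/- and at 1.25, 1.76, 2.52 and 11.8 CPM in WT. Like Fos, it was higher in 3 libraries labelled Alox15-/- than in WT replicates 1 to 3 and highest in WT replicate 4, with a log2 fold change of 0.05 (SE 0.570) and of 1.12 (SE 0.381; adjusted p = 0.303 by edgeR) without that library. Of 9 genes for serum response factor, its partners and CREB factors, which switch early response genes on, 0 had an unadjusted p under 0.05. The largest differences by p were those of Mkl2, an SRF coactivator (0.29, SE 0.165; adjusted p = 0.738), and Elk3, a ternary complex factor (-0.23, SE 0.141; adjusted p = 0.766 by edgeR).

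Of 30 tested genes among 32 other early response genes (not Ier5l and Klf4), 7 had an unadjusted p under 0.05, 12 had a positive and 18 a negative fold change, and WT replicate 4 was the highest library for 17 and the lowest for 4. Over all genes tested, 7.84% had an unadjusted p under 0.05 and 17.9% had WT replicate 4 as the highest library. The median log2 fold change was -0.02. Without WT replicate 4 it was 0.12, with 22 positive and 8 negative fold changes. In that fit 5 of the 30 had an unadjusted p under 0.05, where 8.39% of all genes tested did. Gadd45g, a stress-responsive gene, was at 3.78 to 6.03 CPM in the libraries labelled Alox15-/- and 1.68 to 3.73 CPM in WT, with no overlap (0.88, SE 0.302; adjusted p = 0.358 by edgeR), and Rgs2, a regulator of G protein signalling, differed by 0.67 (SE 0.253; adjusted p = 0.473). Named after their values were seen, as are Klf2 and Rgs1, Tnfaip3, an inhibitor of NF-κB signalling, and Dusp5, an ERK phosphatase, were 1.77 and 1.74 times as high in WT replicate 4 as in the next library. Klf2, a factor of quiescent T cells that falls on activation, was lowest in this library, at 92.1 CPM against 160.1 to 259.1 CPM elsewhere, and so was Rgs1, at 97.2 CPM.

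Among 11 listed targets of AP-1 and NFAT 6 passed the filter on low counts. WT replicate 4 was the highest library for 3 of them, where this held for 17.9% of all genes tested. Of the 6, 1 had an unadjusted p under 0.05 (7.84% of all genes tested), 2 had a positive and 4 a negative fold change. Without WT replicate 4 these counts became 4, 5 and 1, where 8.39% of all genes had an unadjusted p under 0.05 in that fit. That library was singled out for its high values, so leaving it out raises the fold change of genes it was highest for. The counts without it are therefore no separate support for a difference between groups. Il2, the cytokine gene named after its values were seen, was at 73.1, 33.7, 76.8 and 67.0 CPM in the libraries labelled Alox15-/- and at 43.1, 39.6, 31.9 and 288.4 CPM in WT. WT replicate 4 lay 3.76 times above the next library, and 3 of the other group lay above WT replicates 1 to 3. The log2 fold change of Il2 was -0.65 (SE 0.553; adjusted p = 0.838) and 0.73 (SE 0.206; unadjusted p = 0.00242, adjusted p = 0.135 by edgeR) without WT replicate 4. Tnf and Fasl, a cytokine and a death ligand also named after their values were seen, were at 136.2 and 13.2 CPM in WT replicate 4 and at no more than 61.6 and 5.11 CPM elsewhere. Ifng, the interferon-γ gene, was at 21.7, 10.6, 9.46 and 5.18 CPM in the libraries labelled Alox15-/- and at 4.55, 6.57, 2.02 and 7.77 CPM in WT (log2 fold change 1.20, SE 0.421; adjusted p = 0.385 by edgeR). Here WT replicate 4 was within the range of the other group. Il2ra, the high-affinity IL-2 receptor chain, differed by -0.12 (SE 0.10; adjusted p = 0.837).

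Of 10 tested genes among 11 listed targets of EGR2 and EGR3 (not Crtam), 4 had an unadjusted p under 0.05, with 5 positive and 5 negative fold changes, and WT replicate 4 was the highest library for 2, against 7.84% and 17.9% of all genes tested. Lag3, an inhibitory receptor, was at 38.9, 49.1, 48.4 and 32.9 CPM in the libraries labelled Alox15-/- and at 26.5, 36.0, 25.9 and 27.5 CPM in WT (log2 fold change 0.54, SE 0.155; unadjusted p = 0.00327, adjusted p = 0.180 by edgeR). Sema7a, a membrane-bound semaphorin, was at 9.50 to 18.3 CPM against 5.88 to 9.48 CPM without overlap (0.76, SE 0.239; adjusted p = 0.273). Both kept their size without WT replicate 4, at 0.52 (SE 0.166) and 0.67 (SE 0.246). Of 8 tested heat shock genes, listed as a sign of handling stress, 0 had an unadjusted p under 0.05, and those of smallest p, Hsp90aa1 and Hspa8, differed by -0.11 (SE 0.0867; adjusted p = 0.819) and -0.14 (SE 0.114; adjusted p = 0.833 by edgeR).

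For the 3 members of largest spread the genes with the most similar profile were sought over the 8 libraries, as the smallest root mean square difference of centred log2 CPM. Nearest to Egr3 were Egr1 (0.187), Nr4a1 (0.229) and Pdcd1 (0.240), the last encoding the inhibitory receptor PD-1. Nearest to Fosb were Pdcd1 (0.383), Spry1 (0.390), an inhibitor of receptor signalling to ERK, and Egr3 (0.404). Nearest to Fos were Ptger2 (0.341), a prostaglandin E2 receptor, the transcript 5730522E02Rik (0.350) and Gpr183 (0.353), an oxysterol receptor. Pdcd1 was at 98.6 CPM in WT replicate 4 and at 19.2 to 31.4 CPM in the other 7 libraries, so that these profiles share that library's high value.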

How the data were processed

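RNA of 8 Treg cultures was profiled by MACE-seq, which sequences transcripts near their 3′ ends; the labels of the libraries name a small RNA kit instead. The values that the authors deposited are raw counts, not normalized, in rows named by gene symbol. Per the labels' processing notes the work used Bowtie, edgeR and GRCm38, with no role given. The strand used in counting and the treatment of duplicate reads are not given in the sources used here. Of the 28239 symbols 26 have the form of a date and 2 are repeated, none of them members.

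Each column was matched to a library through its name. The filter kept genes reaching 2 CPM in 4 or more libraries (45.0%), as in the study's methods, with TMM scaling and edgeR 4.0.16 in R 4.3.3 (glmQLFit and glmQLFTest, two-sided, no block), adjusted by the Benjamini–Hochberg procedure over 12700 genes at 0.05, which called 158 genes (133 higher, 25 lower). On simulated data for this comparison with 12552 genes, 193 of 200 genes changed by 1.5 on the log2 scale were called, with 12 unchanged genes. No simulated library was made to stand apart, and the change set was larger than that of any member. The simulation therefore does not measure what could be detected for the members. Ratios of related genes used exact permutation tests in scipy 1.17.1. Gene positions came from GENCODE M21 and promoter windows from RefSeq. Poisson intervals cover counting error only.

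The members and lists were chosen with earlier results of these data known. Genes named are the members, Alox15, from each list those past the threshold or the 2 of smallest p, and the 3 nearest profiles; others are said to be named after their values were seen. For the lists of other cells the summed level is given in place of names. Alternatives were DESeq2 1.42.0, limma-voom (limma 3.58.1), other scalings, filters and pseudocounts, a robust fit, the replicate number as a block and each library left out. Giving the fit without WT replicate 4 for single genes and lists was chosen after seeing the data. So was dropping the filter together with that library. Same-numbered libraries did not deviate together (r of 0.069, 0.165, -0.178 and -0.018), so the numbers were not taken as pairs. Python 3.11.15 with pandas 2.3.3 handled tables, and matplotlib 3.10.9 drew the figures.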

Additional observations from a re-analysis of the deposited data

Results flagged for a closer look

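A library was singled out where its gap to the nearest of the other 3 in its group, divided by the group's range, passed Dixon's 95% critical value. Of 60 groups examined 8 passed, and chance passes about 1 in 20. Several genes named in the text, Il2, Tnf, Fasl, Nr4a2, Pdcd1, Spry1 and Foxp3, were not among those examined. The list below is thus not a full count of the libraries that stand apart. In WT, replicate 4 stood above the rest for 4 genes, Fos (12.8 CPM), Fosb (16.8 CPM), Egr1 (218.9 CPM) and Nr4a1 (418.9 CPM), where 1.65% of all genes tested had that library stand apart as the highest in WT. In the libraries labelled Alox15-/-, replicate 1 stood above the rest for Egr1 (99.7 CPM) and Egr3 (88.1 CPM), and replicate 3 stood below the rest for Jun (21.7 CPM). Lag3 was set apart by its high value in WT replicate 2 (36.0 CPM). The causes were not tested.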

How the results depend on the processing

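Dropping the filter on low counts raised the genes past the threshold from 158 to 388, those of the 10 early response genes called lower from 0 to 5, with adjusted p of 0.00886 for Fosb, 0.0255 for Egr1, 9.71e-06 for Egr3, 2.36e-04 for Nr4a1 and 0.00199 for Nr4a3 by edgeR, and the called genes among other AP-1 genes to 1, other early response genes to 4, AP-1 and NFAT targets to 2 and EGR2 and EGR3 targets to 1. In that fit no gene's own spread was used, and without WT replicate 4 it gave 396 genes, 0 of the 10, and 1, 2 and 2 for the first 3 lists, with log2 fold changes of 0.16 for Junb, 0.23 for Egr1, 0.27 for Egr2 and 0.025 for Nr4a1. Under the other settings 0 of the 10 were called. Leaving out each library in turn gave 86 to 172 called genes, fewest without replicate 2 labelled Alox15-/-, and a median over the 10 genes of -0.51 to 0.088, and log2 fold changes of -0.23 to 0.95 for Fos, -1.62 to -0.02 for Fosb, 0.08 to 0.24 for Jun, -0.16 to 0.18 for Junb, -0.09 to -0.01 for Jund, -0.64 to 0.25 for Egr1, -0.42 to 0.29 for Egr2, -0.93 to 0.016 for Egr3, -0.71 to 0.049 for Nr4a1 and -0.70 to -0.27 for Nr4a3. Apart from Jun and Jund, each gene had its highest value without WT replicate 4. Fos was -0.033 in DESeq2. With each library left out in turn, the differences of the log2 ratios ranged from 0.72 to 0.91 for Fos over Fosb (1.05 with a pseudocount of 0.1 CPM and 1.02 on raw counts), -0.095 to 0.21 for Junb over Jund, -0.22 to 0.00074 for Egr1 over Egr2 and -0.13 to 0.31 for Nr4a1 over Nr4a3. With the replicate number as a block, 0 of the 10 and 146 genes were called, the median over the 10 was -0.16, no call among the 10 changed, and 1 of 4 libraries correlated best with its own number. The counts of Fos and Fosb were low, 14 and 7 at the lowest, and how far this limited what could be detected for them was not tested.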
